A study of Mus musculus with 3 samples.

Results

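Open chromatin was read out at 10 genes of the T cell lineage, *Cd3e*, *Cd3d*, *Cd3g*, *Cd4*, *Cd8a*, *Lck*, *Tcf7*, *Bcl11b*, *Gata3* and *Cd28*, in hematopoietic stem cells (HSCs). They were taken by name from the mouse genome annotation (GENCODE vM21 on GRCm38, the mm10 build) and set against all 21755 protein-coding genes of chromosomes 1 to 19 and X. The cells came from bone marrow of wild-type female C57BL/6 mice, 8 weeks old, enriched for c-Kit with beads. They were sorted as LSK CD150+ CD48- CD34- cells, where LSK stands for lineage-negative, Sca-1-positive and c-Kit-positive, and profiled by DOGMA-seq, which reads open chromatin (ATAC), RNA and antibody tags of the same cells. There was 1 preparation with 1 ATAC library, so no value has a replicate and no test between groups was possible. Each interval printed is at 95%, exact from the Poisson distribution for counts and from the binomial for shares, and allows for counting error alone.

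T cells derive from HSCs through progenitors that leave the bone marrow and settle in the thymus. There, Notch signals switch on *Tcf7* and *Gata3*, then *Bcl11b*, transcription factors that commit the cells to the T fate, after which the cells build an antigen receptor with its CD3 signaling chains and the coreceptors CD4 and CD8. HSCs do not make this receptor. The genes thus range from early regulators to late effectors of 1 lineage, and the question was how far each was already accessible in the stem cell.

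Of the 3757 barcodes called as cells, 3108 had more than 3000 fragments in peaks and were kept. They held 37137164 fragments, with a median of 11442 per cell and a range of 3970 to 194134. Background was the median of 2 fragments in 500-bp bins at least 20 kb from any gene that held a fragment. A promoter was called open when the 2-kb window around the principal start held at least 10 times background, here 80 fragments. A gene was called primed when its promoter was not open but at least 1 bin of its body or of the 20 kb on either side was, leaving out bins within 1 kb of an annotated transcript start, and closed when there was none. Primed is thus a name for a pattern of fragments. Of 10 stem cell markers 9 had an open promoter, where 64.7% of all protein-coding genes had one, among them *Kit* with 1613 fragments, *Mecom* with 1746 and *Hlf* with 1846.

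The promoters of *Gata3*, *Lck*, *Cd3e* and *Cd8a* are shown because they span the range from the most to the least accessible gene of the set. Each run gives the 250 bases before the start in RefSeq on GRCm38, 5′ to 3′ on the strand of the gene, and capitals mark the dinucleotide CG, which is dense in the promoters of many widely expressed and developmental genes.
Gata3 promoter, chr2:9878601-9878850, minus strand: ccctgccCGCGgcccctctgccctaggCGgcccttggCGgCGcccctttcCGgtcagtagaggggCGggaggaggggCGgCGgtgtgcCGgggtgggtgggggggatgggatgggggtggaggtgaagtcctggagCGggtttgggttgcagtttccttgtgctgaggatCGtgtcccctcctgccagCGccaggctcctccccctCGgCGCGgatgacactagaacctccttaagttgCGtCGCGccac
Lck promoter, chr4:129573642-129573891, minus strand: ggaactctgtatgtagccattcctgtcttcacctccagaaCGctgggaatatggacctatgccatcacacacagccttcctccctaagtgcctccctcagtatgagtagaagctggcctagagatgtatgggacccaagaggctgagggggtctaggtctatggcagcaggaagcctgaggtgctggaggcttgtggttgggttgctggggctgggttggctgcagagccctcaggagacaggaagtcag
Cd3e promoter, chr9:45009612-45009861, minus strand: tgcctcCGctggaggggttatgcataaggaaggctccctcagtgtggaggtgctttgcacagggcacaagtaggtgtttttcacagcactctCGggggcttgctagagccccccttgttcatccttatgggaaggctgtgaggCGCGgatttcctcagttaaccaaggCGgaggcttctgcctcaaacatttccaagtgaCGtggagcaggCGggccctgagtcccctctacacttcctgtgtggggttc
Cd8a promoter, chr6:71373177-71373426, plus strand: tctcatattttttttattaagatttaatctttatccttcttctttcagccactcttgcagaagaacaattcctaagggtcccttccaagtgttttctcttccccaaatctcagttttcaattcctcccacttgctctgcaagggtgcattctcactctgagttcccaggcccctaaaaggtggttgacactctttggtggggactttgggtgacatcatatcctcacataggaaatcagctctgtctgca

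The *Gata3* stretch held 19 CG dinucleotides, that of *Cd3e* 7, that of *Lck* 1 and that of *Cd8a* 0. RefSeq promoters of 300 bases, which add the 50 bases after the start, were matched for 8 of the 10 genes, all but *Cd4* and *Cd28*. Over these 300 bases *Tcf7* held 45 CG dinucleotides, above 97.4% of the 14739 matched promoters, and *Gata3* held 22. The others held fewer than the median promoter (16), with 9 in *Bcl11b*, 8 in *Cd3e*, 7 in *Lck*, 4 in *Cd3g*, 3 in *Cd8a* and 1 in *Cd3d*. Across all matched genes the median was 21 for open, 4 for primed and 2 for closed promoters. *Lck* and *Bcl11b* were therefore open with fewer CG dinucleotides than the median open promoter.

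*Gata3* and *Tcf7* carried the most accessible promoters, and the genes of the CD3 chains and of the coreceptors the least. Open promoters were found at 5 genes, *Gata3*, *Tcf7*, *Cd28*, *Bcl11b* and *Lck*, where 64.7% of all protein-coding genes had one. Another 4 genes, *Cd3d*, *Cd3g*, *Cd4* and *Cd3e*, were primed (18.3% of all genes), and *Cd8a* alone was closed (17% of all genes). The median of the 10 genes was 87.5 promoter fragments, against 339 over all protein-coding genes. *Gata3*, *Tcf7* and *Cd28* lay above 339 and the other genes below it.

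**Figure D1:**
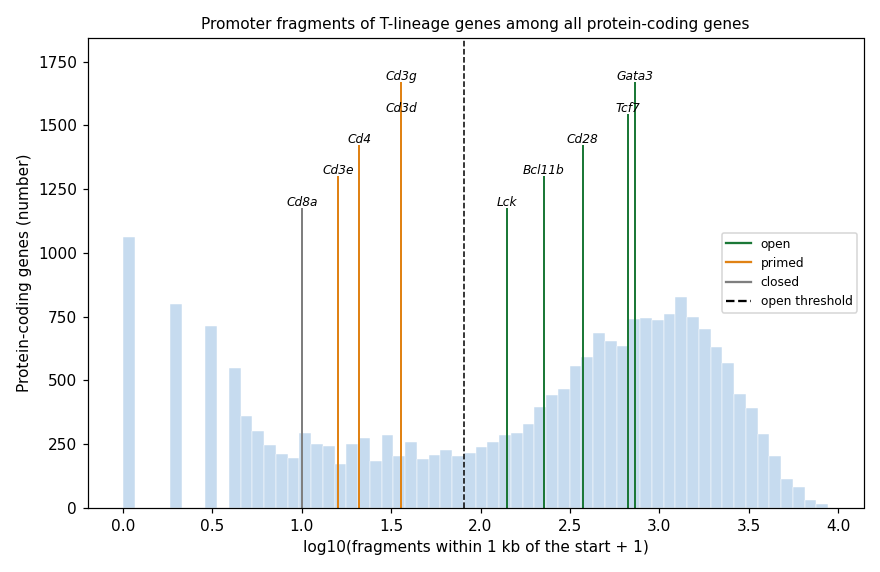
Histogram of promoter fragments of all 21755 protein-coding genes (x axis, log10 of fragments within 1 kb of the start plus 1; y axis, number of genes), with a line for each T-lineage gene colored by class and a dashed line at the open threshold of 80 fragments. The 5 open genes lie on or left of the broad right-hand mode, from 140 to 729 fragments, and the other 5 lie between both modes, from 9 to 35.

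*Gata3*, which encodes the GATA factor required for early T cell development and for T helper 2 cells, had 729 promoter fragments (95% interval 677 to 784), more than 64.9% of protein-coding genes. *Tcf7*, which encodes TCF1, a Notch target and partner of beta-catenin, had 670 (620 to 723), more than 63.1%. The intervals of these genes overlapped. *Cd28*, the costimulatory receptor that binds CD80 and CD86, had 372 (335 to 412), close to the middle of all genes at percentile 51.6. *Bcl11b*, the zinc finger factor that closes off other fates at T commitment, had 225 (197 to 256), at percentile 44.2. *Lck*, the kinase that phosphorylates the CD3 chains, had 140 (118 to 165), at percentile 39.5. The intervals of *Cd28*, *Bcl11b* and *Lck* overlapped neither each other nor those above them.

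The genes of the CD3 chains and of the coreceptors came last. *Cd3d* and *Cd3g* had 35 promoter fragments each, *Cd4* had 20, *Cd3e* had 15 and *Cd8a* had 9. The interval of each overlapped that of the next in order, whereas those of *Cd3d* and *Cd3g* (24.4 to 48.7) lay clear of that of *Cd8a* (4.12 to 17.1). *Cd3d* and *Cd3g* are divergent neighbors whose starts lie 1355 bp apart. Their windows share 645 bp, and together they held 59 different fragments, so both counts rest in part on the same reads. For scale, the promoters of 1135 olfactory receptor genes, which serve the sense of smell, had a median of 2 fragments and a 95th percentile of 10. *Cd8a* lay within that range and the other 4 above its 95th percentile.

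Seen by cell, a *Gata3* promoter fragment was found in 19.2% of HSCs (exact binomial interval 17.9% to 20.7%) and a *Tcf7* fragment in 17.1% (15.7% to 18.4%). The share was 9.40% for *Cd28*, 6.08% for *Bcl11b* and 3.93% for *Lck*. It was 1.03% for *Cd3d* and for *Cd3g*, 0.644% for *Cd4*, 0.450% for *Cd3e* and 0.290% for *Cd8a*, where the olfactory receptor promoters had a median of 0.0644% and a 95th percentile of 0.290%, in the same cells and at the same depth. The *Cd8a* share (0.132% to 0.549%) thus lay at the upper end of the olfactory receptor range and above its median. A summed count cannot tell a promoter open in few cells from one weakly accessible in many.

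Cells were then sorted by how many of the promoters they covered, with *Cd3d* and *Cd3g* counted apart although their windows overlap and 12 cells had fragments at both. Of the 3108 cells, 1664 had a fragment at none of the 10 promoters, 1110 at 1, 283 at 2 and 51 at 3 or more. The median number of fragments per cell rose along that series, from 10766 to 11959, 12775 and 13939, and the part of depth in it was not tested. The CD3, *Cd4* and *Cd8a* promoters together were covered in 94 cells (3.02%), and 1 cell had fragments at 2 or more of these loci, *Cd3d* and *Cd3g* counted as 1. A single cell had fragments at 6 promoters, those of *Cd3e*, *Cd3d*, *Cd3g*, *Tcf7*, *Bcl11b* and *Gata3*, and it was the cell with the most fragments of all, 194134.

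How tightly fragments gathered at the start differed among the open genes. Within 500 bp of the start lay 330 of the 372 *Cd28* fragments (88.7%) and 574 of the 670 *Tcf7* fragments (85.7%), near the median of all open promoters (90.5%). The share was 70% for *Lck* (98 of 140), 51.2% for *Gata3* (373 of 729) and 45.3% for *Bcl11b* (102 of 225), where 5% of open promoters lay below 44.9%. At *Gata3* the strongest bin of the locus, with 1241 fragments (1173 to 1312), was centered 1.15 kb upstream of the principal start at chr2:9879501-9880000, mostly outside the window. It was covered in 30.6% of cells, more than the promoter itself, and the *Gata3* count therefore depends on where the window ends.

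Fragment length gave a readout that the classes do not use. Fragments shorter than the DNA wrapped around a nucleosome come mostly from nucleosome-free stretches, and they made up 45.6% of all fragments and a median of 49.8% at open promoters. *Cd28* was at 52.7% (47.5% to 57.9%) and *Tcf7* at 41.9% (38.2% to 45.8%). *Lck* was at 35.7% (27.8% to 44.2%), *Bcl11b* at 32.9% (26.8% to 39.4%) and *Gata3* at 29.1% (25.8% to 32.5%), so the intervals of all open members but *Cd28* lay under the median of open promoters. The 5 promoters that were not open ranged from 5.71% in *Cd3d* to 22.2% in *Cd8a*, each from at most 4 short fragments, where promoters that were not open, with at least 9 fragments, had a median of 20.4%.

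**Figure D2:**
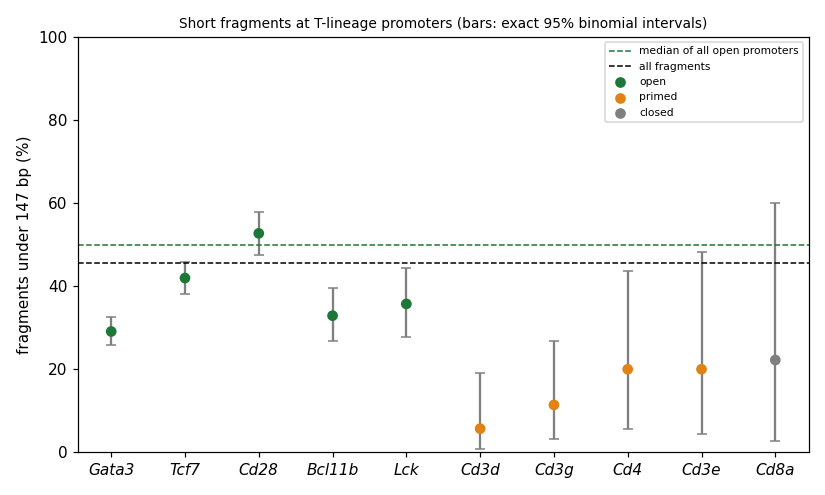
Share of promoter fragments shorter than nucleosomal DNA (y axis, percent) for each T-lineage gene, ordered by promoter fragments, with exact 95% binomial intervals; dashed lines mark the median of all open promoters (49.8%) and the share over all fragments (45.6%). *Cd28* sits above both lines, and the intervals of the *Gata3*, *Bcl11b* and *Lck* promoters end below both.

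Beyond the promoters, open bins were unevenly spread over the loci. Of 1049 distal bins in the windows of the 10 genes, counted once where windows overlap, 137 were open (13.1%), against 6.32% of the distal bins of all protein-coding genes. *Gata3* and *Tcf7* with 34 each, *Cd4* with 20 and *Lck* with 19 supplied most of them, whereas the shares of *Bcl11b* (5.34%), *Cd3e* (5.33%), *Cd28* (5.17%) and *Cd8a* (0%) lay under that of all genes. The share differed widely between gene lists. With shared bins counted for each gene, 12.7% were open for the members, 26.6% for the stem cell genes, 16.8% for the granulocyte genes, 14.4% for the NK cell genes, 7.14% for the B cell genes and 7.91% for all genes. Joined where adjacent, the open bins of the members made 13 stretches at *Tcf7*, 11 at *Lck*, 7 at *Gata3*, 6 each at *Bcl11b* and *Cd4*, 5 at *Cd28*, 3 each at *Cd3d* and *Cd3g*, 2 at *Cd3e* and 0 at *Cd8a*. Of the 7687 protein-coding genes without an open promoter, 51.7% had a distal open bin and so were primed, as were 4 of the 5 such T-lineage genes.

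**Figure D3:**
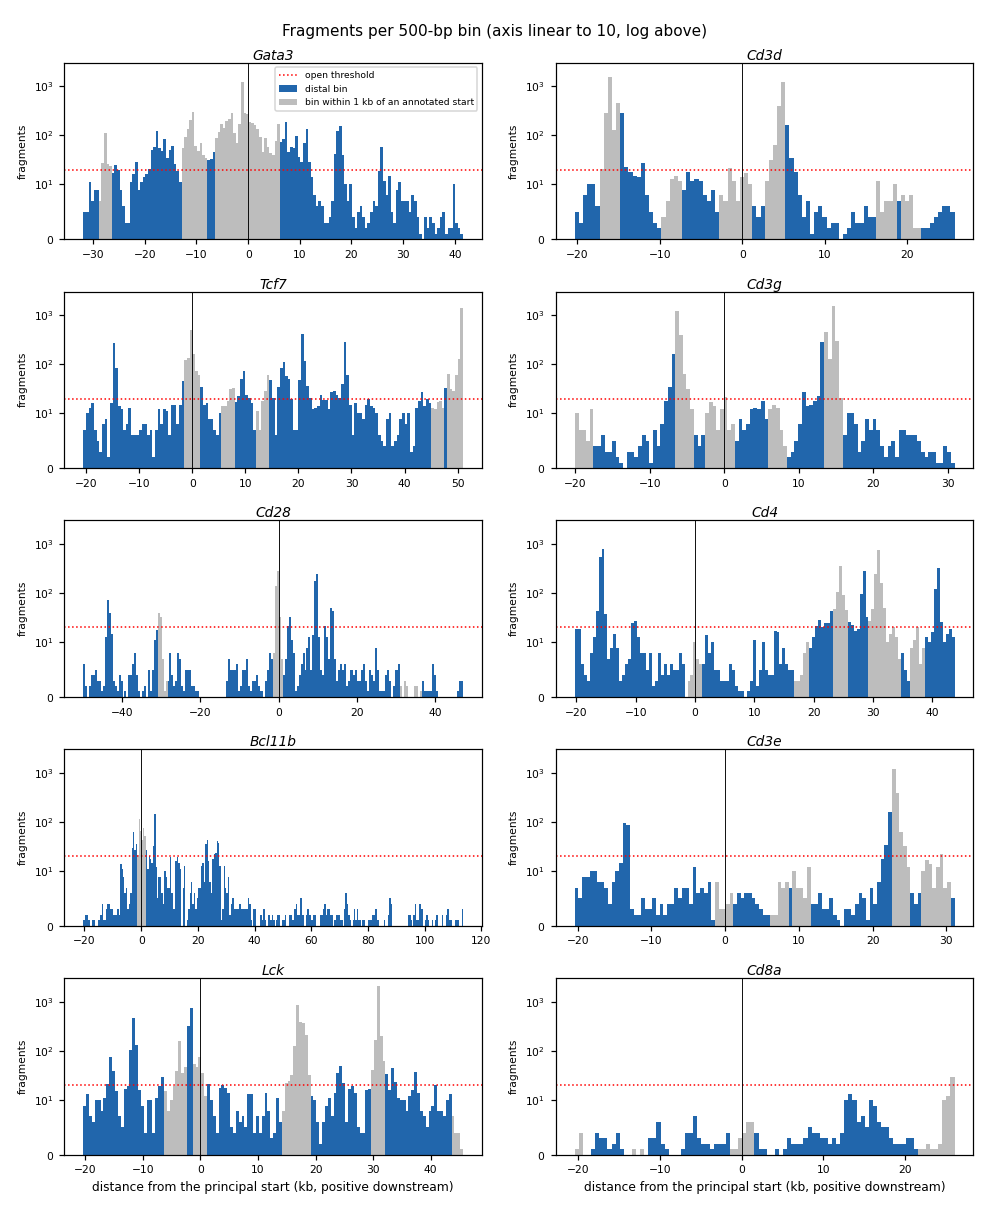
Fragments per 500-bp bin (y axis, linear to 10 and logarithmic above) by distance from the principal start (x axis, kb, positive downstream) for each gene, with distal bins in blue, bins within 1 kb of an annotated start in gray and the open threshold of 20 fragments dotted. *Cd4* has a flat start and a peak 15.5 kb upstream, *Cd3d* a peak near 5 kb downstream, and *Cd8a* stays under the threshold in every blue bin.

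The *Cd4* and *Lck* sites with the most distal fragments are printed next, as the central 300 bases of the bin on the plus strand of GRCm38. Capitals mark matches, on either strand, to 6 motifs given as short words. The word AGATAA stands for the GATA factors, to which GATA3 belongs. The word TGTGGT stands for the RUNX factors, which act in HSCs and again in T cells. The ETS factors are searched by CGGAAG, a word with a CG dinucleotide in it. The E-box, bound by E proteins such as those of *Tcf3* and *Tcf12*, is searched as CAGCTG, and in its other common form as CAGGTG. The TCF/LEF family, to which the product of *Tcf7* belongs, is searched as CTTTGA. The protein CTCF, which anchors chromatin loops, is searched by words of its core, AGGTGGCAG, AGGTGGCGC, AGGGGGCAG and AGGGGGCGC.
Cd4 upstream site, chr6:124903601-124903900, plus strand: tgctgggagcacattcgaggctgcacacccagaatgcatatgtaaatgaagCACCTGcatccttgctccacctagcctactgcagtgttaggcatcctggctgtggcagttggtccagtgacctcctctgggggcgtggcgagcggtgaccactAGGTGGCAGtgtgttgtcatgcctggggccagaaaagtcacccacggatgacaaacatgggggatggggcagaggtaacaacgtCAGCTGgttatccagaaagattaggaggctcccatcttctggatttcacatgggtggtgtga
Lck upstream site, chr4:129575101-129575400, plus strand: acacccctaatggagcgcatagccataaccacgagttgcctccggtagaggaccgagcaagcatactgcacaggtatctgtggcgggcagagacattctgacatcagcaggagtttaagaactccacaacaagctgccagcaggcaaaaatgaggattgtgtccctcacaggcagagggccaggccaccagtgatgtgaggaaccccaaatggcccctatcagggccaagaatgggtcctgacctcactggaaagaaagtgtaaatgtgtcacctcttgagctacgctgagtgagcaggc

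The *Cd4* locus paired a bare promoter with a strong distal site. The site, chr6:124903501-124904000, lay 15.5 kb upstream of the start, between *Cd4* and *Lag3*, and held 773 fragments (719 to 829) in 19.9% of cells. The *Cd4* promoter had 20. Among the strongest distal bins of all protein-coding genes this one stood at percentile 94.8, and the adjacent bin, which overlaps *Lag3*, held 541. The printed stretch held 2 E-box words, as 36.4% of all distal open bins held at least 1 in their central 300 bases, and 1 CTCF word, as 3.04% did. The CTCF words were added after the sequence had been seen. Farther off, bins 28.5 and 41.0 kb downstream, inside *Gpr162* and *P3h3*, held 283 and 324 fragments, and the promoters of these neighbors were open with 469 and 909.

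At *Lck* the strongest distal bin, chr4:129575001-129575500, lay 1.61 kb upstream of the distal start and held 756 fragments (703 to 812) in 18.5% of cells, at percentile 94.5. None of the 6 motifs was found in its printed stretch, which says nothing about the factors. A further bin 11.6 kb upstream held 475 fragments. *Lck* has 2 promoters whose transcripts tie in the annotation's rank, and the distal start, with 140 fragments, was taken as principal by the 5′-most rule. The proximal start, used in thymocytes, had 81 (64.3 to 101), just past the threshold of 80. The strongest bin within the gene was neither, lying 16.9 kb downstream of the distal start over exon 6, chr4:129556501-129557000, with 842 fragments (786 to 901) in 21.8% of cells. It sits by annotated starts of retained-intron transcripts, which kept it out of the distal bins. *Hdac1*, an open neighbor, had 2242 promoter fragments, and *Fam167b*, 4.91 kb upstream, had 55 and was primed.

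*Cd3d*, *Cd3g* and *Cd3e*, which encode the delta, gamma and epsilon chains of CD3, lie side by side on chromosome 9, so the same bins count for more than 1 of them. A bin of 284 fragments (252 to 319), 14.5 kb upstream of *Cd3d*, lay close to *Ube4a*, whose open promoter had 1678. A bin of 163 over exon 5 of *Cd3d* was the strongest for *Cd3e*, 22.4 kb away, among bins off annotated starts, and *Cd3e* had a bin of 97 at 13.6 kb upstream.

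The most accessible place in the CD3 cluster outside the *Ube4a* promoter was inside *Cd3d*. The bin chr9:44986501-44987000, in exon 5, the last exon, held 1187 fragments (1120 to 1257), and 854 cells (27.5%) had at least 1 of them, where 32 cells had a fragment at the promoter. In this bin 62.7% of fragments were short. This bin held 1187 of the 1476 fragments over the body of *Cd3d*, whose density was 266 fragments per kb, more than that of 95.5% of protein-coding genes. It lay 4.96 kb downstream of the principal start and within 1 kb of the starts of shorter *Cd3d* transcripts, so it did not enter the distal bins, and it was picked out after the values had been seen. With the start of the protein-coding transcript Cd3d-202 in place of the principal one, *Cd3d* had 1339 fragments and became open. Only 222 of these lay within 500 bp of that start, and the window reached into the exon 5 bin.

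*Tcf7* and *Gata3* had the most open distal bins, 34 each, 29.3% and 31.8% of their distal bins. In *Tcf7* the strongest, chr11:52262001-52262500, lay in the intron after exon 3, where it overlaps *Gm26551*, and held 404 fragments (366 to 445), at percentile 84.1. Others lay in the intron after exon 10 (288) and 14.7 kb upstream (267). In *Gata3* the open bins covered a wide stretch around the sharp bin 1.15 kb upstream. Its strongest distal bin, in the intron after exon 3, held 186 fragments, at percentile 61.2, while the body held 4822 fragments, or 146 per kb, more than 89.5% of genes. The upstream bin of 1241 fragments lies within the annotated body and is part of that sum. The locus also holds the neighbors *4930412O13Rik* and *9230102O04Rik*, 2.65 and 5.39 kb upstream, with open promoters of 506 and 362 fragments.

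*Bcl11b*, the longest of the genes at 93.2 kb, had 14 open distal bins of 262 (5.34%), near the share of all genes. The strongest lay in the first intron, 4.85 kb downstream of the start at chr12:107998501-107999000, and held 146 fragments (123 to 172), 70.5% of them short. The next lay 2.65 kb upstream with 63. *Cd28* had 9 of 174 (5.17%), led by a bin of 246 fragments (216 to 279), 9.89 kb into its first intron at chr1:60756001-60756500. *Cd8a*, the coreceptor of cytotoxic T cells, had 0 of 70. Its strongest distal bin, 13.3 kb downstream, held 13 fragments, at percentile 16.9.

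The CTCF words were also searched in 31 whole bins. These were the 3 strongest bins of each locus outside its own promoter window and away from the starts of other protein-coding genes, and the strongest with the promoter window let in. Apart from the *Cd4* site, which had prompted the choice of words, a word was found at *Lck* (11.6 kb upstream), *Tcf7* (14.7 kb upstream), *Bcl11b* (first intron) and *Gata3* (5.85 kb downstream), while 5.03% of all distal open bins of 500 bp, of any strength, held at least 1. The bins searched were chosen for their strength, so these shares are not set against each other. Weaker distal bins of *Lck* and *Tcf7* held 1 as well. In the promoters, E-box words were found in 7 of the 8 matched genes, all but *Bcl11b* (32.1% of all promoters). The GATA word was found in *Cd3g* alone (8.62% of all), as was a CTCF word (4.42%), the TATA word TATAAA in *Bcl11b* alone (11.4%) and the RUNX word in *Lck* alone (14.3%). The SP/KLF word GGGCGG was in *Tcf7*, *Gata3* and *Cd3g* (52.0%), the RBPJ word TGGGAA, the motif of the Notch partner, in *Cd3e*, *Cd3g*, *Cd8a* and *Lck* (24.2%), and TCF/LEF in *Cd3d* and *Bcl11b* (14.1%). No ETS word was found (23.9%).

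A further 51 genes of the T lineage were sorted into 6 lists, set here against the 64.7% of all genes with an open promoter. All 12 T lineage factors had an open promoter, led by *Tcf3* with 3622 fragments, *Runx3* with 1845 and *Tcf12* with 1795, and down to *Notch1* with 939 and *Lef1* with 382, the nearest relative of *Tcf7*. Their median of 1381.5 exceeded *Gata3* and *Tcf7*. T receptor signaling genes were open in 8 of 12 cases (66.7%), near the share of all genes, from *Fyn* (1288), *Lat* (751) and *Prkcq* (606) to the primed *Zap70* (21) and *Themis* (5). *Lck* stood under the median of that list, 249.5.

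Receptor chains and coreceptors besides the members were open in 2 of 8 cases, *Thy1* (153) and *Cd7* (99), and primed in 6, among them *Cd5* (53), *Cd247* (16) and *Cd8b1* (13), the partner of *Cd8a*. Their median of 29 lay beside *Cd3d*, *Cd3g* and *Cd4*. Of the costimulation genes 2 of 8 were open, *Cd27* (337) and *Pdcd1* (119), and *Tnfrsf4* (49), *Icos* (7) and *Cd40lg* (3) were primed, and the interval of *Cd28* (335 to 412) overlapped that of *Cd27* (302 to 375). The recombination genes *Rag2* (51), *Rag1* (36) and *Dntt* (23) were primed. Effector genes were open in 3 of 8 cases, among them *Tbx21* (372) and *Il4* (92), with *Foxp3* at 13 and *Gzmb* at 5. Over all 51, 27 were open (52.9%), 21 primed and 3 closed.

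**Figure D4:**
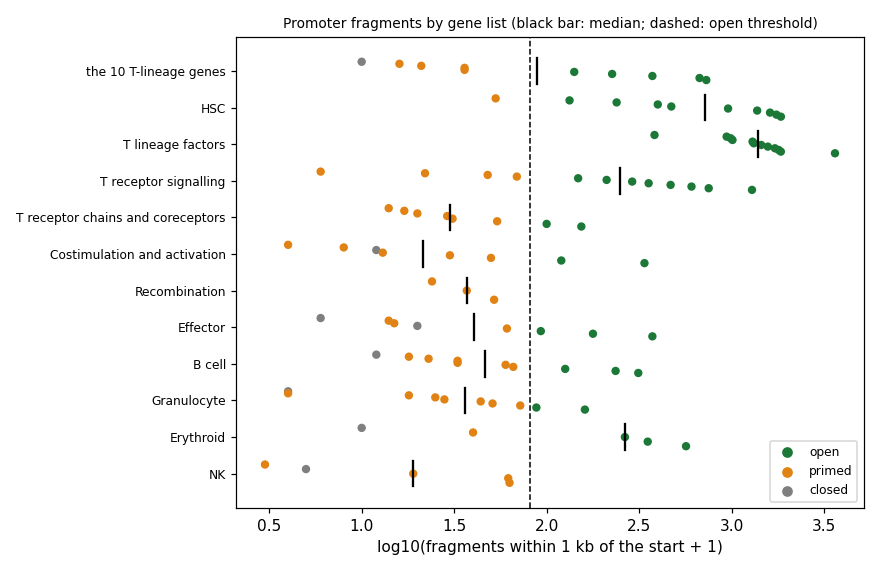
Promoter fragments (x axis, log10 of fragments within 1 kb of the start plus 1) for the 10 T-lineage genes and for each comparison list (rows); a point is a gene colored by class, the black bar is the median and the dashed line the open threshold. All points of the T lineage factors lie right of the threshold, and most receptor chain, costimulation, granulocyte and NK genes lie left of it.

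Genes of other mature blood cells gave the scale for the late T cell genes. Of 10 B cell genes 3 were open, *Ebf1* (312), *Cd79b* (235) and *Pax5* (125), and *Blk* (17) and *Ms4a1* (11) were lowest. Of 10 granulocyte genes 2 were open, *Prtn3* (160) and *Ltf* (87), followed by *Elane* (71), with *S100a9* and *Ctsg* at 3. Of 5 NK cell genes none was open, with *Nkg7* at 62, *Klrb1c* at 61, *Klrd1* at 18, *Ncr1* at 4 and *Klrk1* at 2. Of 5 erythroid genes 3 were open, among them *Epor* (566) and *Klf1* (351), with *Hbb-bt* at 39 and *Alas2* at 9. In the stem cell list *Slamf1*, which encodes the CD150 of the sort, had 132 fragments (110 to 157), an interval that overlapped that of *Lck*, and *Ly6a*, which encodes Sca-1, had 52 and was primed. A marker of the gate can thus have a lower promoter count than *Cd28* or *Bcl11b*.

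Scaled to 1000000 fragments of the cells counted, the open promoters had overlapping intervals in cells of low and high depth. In tertiles of cells by fragments in peaks, *Gata3* had 21.1, 20.3 and 18.5 promoter fragments on this scale from the lowest to the highest tertile, with overlapping intervals. *Cd28* had 10.1, 10.5 and 9.64, and *Lck* had 3.69, 3.79 and 3.80. *Tcf7* had 15.6 (13.0 to 18.6), 18.3 and, in the highest, an interval of 17.0 to 21.2, and *Bcl11b* had 4.55 (3.20 to 6.27), 5.81 and 6.95 (5.76 to 8.32). The intervals of the outer tertiles overlapped for each gene. The values of *Tcf7* and *Bcl11b* rose with depth and that of *Gata3* fell, and a trend with depth was not tested.

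**Figure D5:**
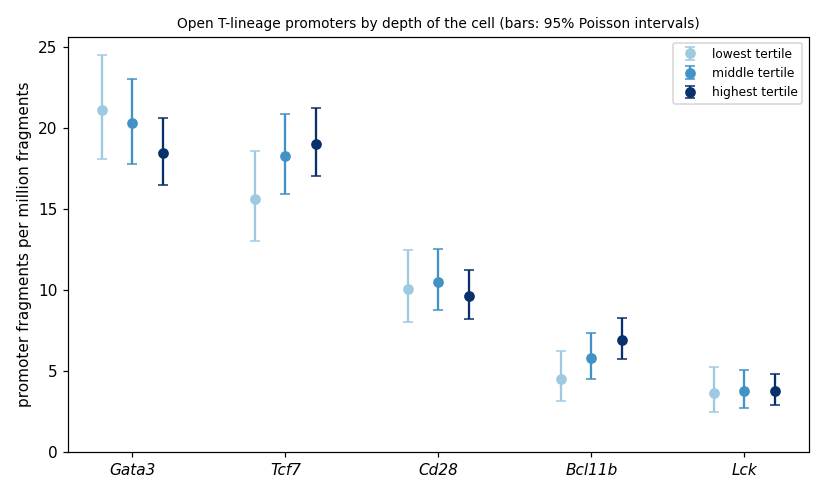
Promoter fragments per 1000000 (y axis) of the 5 open T-lineage genes in the lowest, middle and highest tertile of cells by fragments in peaks, with 95% Poisson intervals. For each gene the intervals of the 3 tertiles overlap, with *Gata3* and *Tcf7* above all others throughout and *Lck* near 4.

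Barcodes not called as cells, which hold free DNA and debris, gave a comparison from the same library. There the promoters of *Gata3* and *Tcf7* had 8.79 (5.97 to 12.5) and 7.09 (4.59 to 10.5) fragments per 1000000, under the values of all 3 tertiles of cells without overlap. *Cd28* had 4.82 (2.81 to 7.72), also under its tertiles without overlap. The values of *Bcl11b* (3.40) and *Lck* (2.84) had intervals that overlapped those of all 3 tertiles. *Cd8a* had 1.99 (0.798 to 4.09) there and 0.123 to 0.337 in the tertiles of cells. Its interval outside cells lay above those of the lowest and highest tertiles (up to 0.685 and 0.598) and overlapped that of the middle one. Its fragments were thus no more frequent in cells than outside them, and less frequent in the outer tertiles. The primed promoters were not told apart from these barcodes, since their intervals outside cells overlapped those of each tertile. They had 2 to 6 fragments each outside cells, too few to show that the values are equal. *Cd4* had 1.70 outside and 0.505 to 0.614 in the tertiles, *Cd3e* 0.567 and 0.253 to 0.614, *Cd3d* 0.851 and 0.842 to 1.05, and *Cd3g* 0.567 and 0.589 to 1.23.

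Markers of mature T cells were read in the same cells. *Cd5*, *Cd6*, *Cd8b1* and *Cd2*, with 53, 28, 13 and 30 promoter fragments, were primed (18.3% of all genes), while *Thy1* and *Cd7* were open (64.7% of all genes). When 157 cells with a fragment at a promoter of a set of T cell genes that includes *Cd5*, *Cd6*, *Cd8b1* and *Cd2*, but not *Thy1* or *Cd7*, were left out, 93.5% of all fragments remained. At the member promoters 100% remained for *Cd4* and *Cd8a*, 97.0% for *Cd28*, 95.6% for *Bcl11b*, 94.1% for *Gata3*, 93.9% for *Tcf7* and 93.3% for *Cd3e*. Lower shares remained for *Lck* (89.3%), *Cd3g* (85.7%) and *Cd3d* (82.9%), losses of 15 of 140, 5 of 35 and 6 of 35 fragments. *Cd3d* and *Cd3g* share part of their windows, and whether these shares differ from 93.5% was not tested. The background then fell from 2 to 1 fragment per bin, *Cd8a* became primed and 279 distal bins were open. With the background kept at 2, a choice made after the data were seen, each of the 10 genes kept its class and 122 distal bins were open.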

How the data were processed

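Fragments of the ATAC library of 1 HSC preparation were analysed. Per the file headers, reads were mapped by the authors to mm10 in Cell Ranger ARC (version 2.0.2), which wrote each unique fragment with its position and its count of read pairs, and for every barcode the count of fragments in peaks and the cell call. No count was normalized. Antibody tag counts, whose tags are unnamed in the table, were not used, and neither was RNA. Each barcode called as a cell carries ATAC and RNA from 1 joint call. Doublets were kept.

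Called cells with over 3000 fragments in peaks were kept. A fragment was counted in every window it overlapped, without weighting by read pairs. Principal starts follow the APPRIS rank in GENCODE vM21, ties going to the 5′-most start, a rule that decides *Lck* and *Tcf7*. Windows were 1 kb either side and bins 500 bp over the body and 20 kb either side. No fragment or gene ended beyond its GRCm38 chromosome. Sequences came from RefSeq GRCm38.p6, a RefSeq promoter being matched when its start lay within 500 bp of the principal one. All 10 genes are named, with the 3 highest and 2 lowest genes of each comparison list, neighbors with a start within 20 kb, and up to 3 distal bins per gene. A few genes of the comparison lists are not reported here by name. The genes and lists were chosen with earlier results of these data known. Total depth of the kept cells was 37137164 fragments, so counts near 10 are precise only to about their exact Poisson interval. Python 3.11.15, numpy 2.4.6, scipy 1.17.1, pandas 2.3.3 and matplotlib 3.10.9 were used. The counting was tested on simulated data. Alternatives changed the start, window, counting, thresholds, background, bins and cells.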

Additional observations from a re-analysis of the deposited data

How the results depend on the processing

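Over 20 alternative settings, *Gata3*, *Tcf7*, *Cd4* and *Cd3g* kept their class in all. *Cd3e* became closed with 10 kb either side, *Cd3d* open at its most covered coding start, *Cd28* primed at the gene-model start, *Bcl11b* primed in the lowest depth tertile of cells, and *Lck* primed in that tertile and at 20 times background. The count of open members stayed at 4 to 6 except in that tertile, where it was 3. The count of closed members went from 1 to 2 with 10 kb either side. It went to 0 at 5 times background, without the tenth of cells with most fragments, without cells with fragments at other T cell promoters, with all bins kept as distal, and, chosen after the data were seen, with only principal starts left out, each time because *Cd8a* became primed. The 137 open distal bins became 60 with sub-nucleosomal fragments alone, 299 at 5 times background, 68 at 20 times background, 247 without the tenth of cells with most fragments, 63 in the lowest depth tertile, 279 without cells with fragments at other T cell promoters, and 249 with all bins kept. With the background kept at 2 and the cells with fragments at other T cell promoters left out, the count was 122 and no class changed. The background is a whole number, so it steps from 2 to 1 when few cells are left out, and the bin threshold moves with it. In the lowest tertile the background was also 1, with 8138495 of the 37137164 fragments. The promoter and bin thresholds were therefore higher there relative to depth. On the scale used for the tertiles above, *Lck* had 3.69 there and 3.80 in the highest tertile. *Bcl11b* had 4.55 and 6.95, and for each gene these intervals overlapped. Whether the changes in the lowest tertile reflect more than the higher thresholds was not tested. With the mean of all intergenic bins as background (1.82), also chosen after the data were seen, 150 bins were open and no class changed.

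No paired analysis was possible because 1 ATAC library was compared with no other. With 1 library no replicate could be left out. The 5 promoters that were not open rest on 9 to 35 fragments each.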
